A study of Mus musculus with 8 samples.

Results

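The miR-17 to miR-92a cluster was examined through the 6 miRNAs that its main arms give, which were taken by name from the array annotation: mmu-miR-17-5p, mmu-miR-18a-5p, mmu-miR-19a-3p, mmu-miR-20a-5p, mmu-miR-19b-3p and mmu-miR-92a-3p (the prefix mmu, for mouse, is mostly left out here). They were 6 of 611 mouse miRNAs on the array. Of the cluster, miR-92a-3p and miR-20a-5p were detected on all 8 arrays, miR-19b-3p was detected on 5 of them, and the other 3 were detected on none. The cells were C3H10T1/2, an established mouse mesenchymal line used as a model of early cartilage cells. The WT group received the wild type N-terminal part of Indian hedgehog (wild type IhhN) and the MT group received the same protein with the E95K mutation, which belongs to brachydactyly type A1, a hereditary shortening of the fingers. The control group received no protein, although a dose of 750 nM is written on its labels too. All cells were incubated for 48 h, and no gene was deleted or introduced in any group. Each group had 2 RNA samples, and each of the 2 WT samples was hybridised on 2 arrays, which were averaged. The induction adds recombinant protein to cultured cells of a single line, and the labels do not say whether the 2 RNA samples of a group came from separate cultures. All p-values given here therefore measure only the spread between these samples, which may be technical.

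The cluster is transcribed as a single primary RNA, MIR17HG in human, from which the hairpins are cut and processed separately, so that members of one transcript can reach different levels. It is a target of MYC, promotes proliferation and survival of cells, and is often called oncomiR-1 because it is amplified in lymphomas. Germline deletion of the human locus causes a form of Feingold syndrome with short fingers, so the cluster has a known part in skeletal growth.

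In the RefSeq annotation of mouse build GRCm38.p6, the 6 hairpins lay within 836 bases of the plus strand of chromosome 14, at chr14:115043671-115044506. They fall into 4 seed families, the seed being the part of a miRNA that pairs with its targets. The mature sequences are shown because the members differ in the array signal and because some of them are near-identical. They are written from 5′ to 3′, with the seed (bases 2 to 8) in capitals.
miR-17-5p: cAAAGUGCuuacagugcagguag
miR-20a-5p: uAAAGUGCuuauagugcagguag
miR-18a-5p: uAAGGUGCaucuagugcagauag
miR-19a-3p: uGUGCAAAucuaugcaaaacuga
miR-19b-3p: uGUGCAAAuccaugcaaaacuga
miR-92a-3p: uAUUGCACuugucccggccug

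miR-17-5p and miR-20a-5p shared the seed AAAGUGC and differed at 2 bases. miR-19a-3p and miR-19b-3p shared the seed GUGCAAA and differed at a single base, U11C, counted from the 5′ end of miR-19a-3p. miR-18a-5p (seed AAGGUGC) and miR-92a-3p (seed AUUGCAC) had no other member in their families. The sequences of miR-19b-3p and miR-92a-3p also occur in hairpins of the related cluster on chromosome X, at chrX:52741991-52742013 and chrX:52741854-52741874, so their array signal could come from either locus. The other members have 1 annotated locus each. G and C made up 57.1% of the bases of miR-92a-3p, 39.1% of those of miR-20a-5p and of miR-19b-3p, 47.8% of miR-17-5p, 43.5% of miR-18a-5p and 34.8% of miR-19a-3p.

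The number of mouse miRNAs detected ranged from 104 to 150 per array, and no spot was saturated. A probe counted as detected when more than 50% of its spots were well above background. The 75th percentile of the detected probes was between 606 and 785 signal units on the control arrays and between 432 and 565 on the WT and MT arrays, and each array was scaled to it, so a difference given here is relative to that percentile. The WT and MT samples with the number 1 had the fewest detected miRNAs, 104 and 117 on the WT arrays and 106 on the MT array, against 143 to 150 elsewhere, so the arrays that detected fewest were all of induced cells. Of the mesenchymal miRNAs that served to check the cell type, 9 of 11 were detected, with miR-21-5p reaching 12.29 on the log2 scale. None of the 4 muscle, 2 endothelial, 10 epithelial or 1 liver markers was detected, and 1 of 6 blood, 1 of 5 neuronal and 1 of 10 pluripotency markers was.

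mmu-miR-17-5p, mmu-miR-18a-5p and mmu-miR-19a-3p were not well above background in any group. Every member had 2 probes of 10 spots each. The signal of the miR-17-5p probes lay between -6.89 and 0.00685 units after background subtraction, with 0% of spots well above background on any array. The signal of the miR-18a-5p probes lay between -3.34 and 5.47 units, with at most 10% of spots well above background. For miR-19a-3p the range was -5.67 to 11 units, again with 0% of spots. These signals can be set beside the standard deviation of the negative control spots. As given in the scanner file headers, without outlier spots, it was 2.91 to 6.63 units across arrays. Computed over all negative control spots, it was 3.86 to 19.4 units. No level and no difference can therefore be given for these members. miR-17-5p differs by 2 bases from miR-20a-5p and miR-19a-3p by 1 base from miR-19b-3p, both of which were detected.

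For the remaining members the signal before scaling is given first. The signal of miR-92a-3p was 174 and 180 units in the WT samples, 167 and 162 in the MT samples, and 199 and 164 in the control samples. These ranges overlapped, and the control samples held the highest value and the second lowest. The signal of miR-20a-5p was 40.4 and 52.0 units in the WT group, 42.6 and 42.8 in the MT group, and 97.6 and 65.9 in the control group. For miR-19b-3p it was 20.2 and 46.8 units in the WT group, 26.9 and 35.2 in the MT group, and 101 and 89.6 in the control group. Both miR-20a-5p and miR-19b-3p were higher in each control sample than in any induced sample before scaling. Lower unscaled values were common, as only 12% of all 142 miRNAs lay above the control in WT and 13.4% in MT. The share of all miRNAs without overlap before scaling was not computed. The control arrays were also brighter as a whole, and the scaled values given next are relative to the other miRNAs of the same array.

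**Figure D1:**
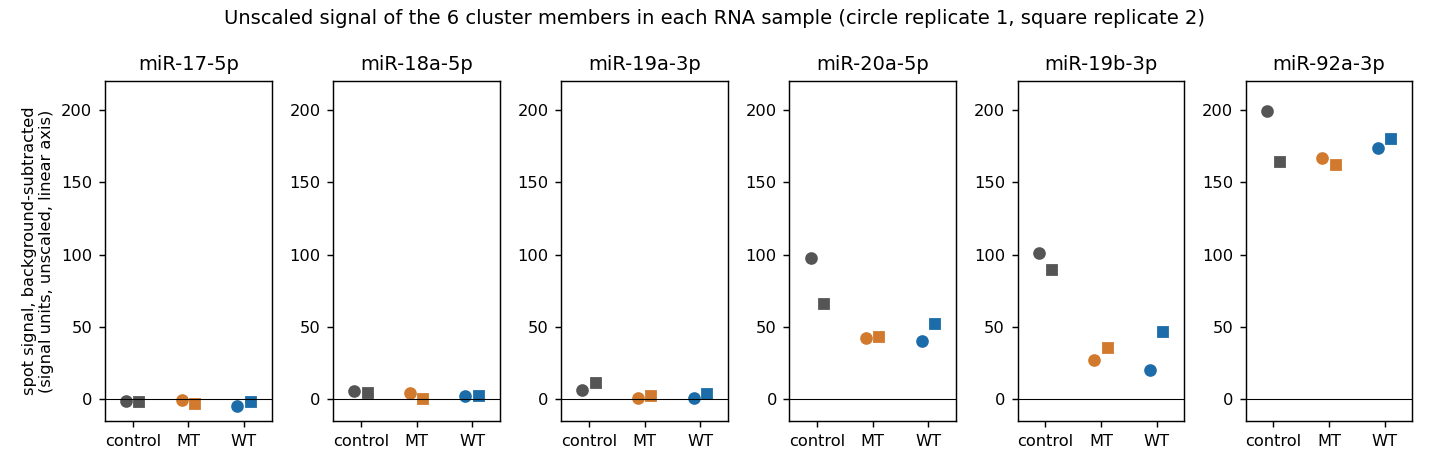
Background-subtracted signal of the brighter probe of each of the 6 members, in signal units on a linear axis and without scaling, for the control, MT and WT groups, with a point per RNA sample (circle replicate 1, square replicate 2). miR-17-5p, miR-18a-5p and miR-19a-3p lie near 0 in all samples, while miR-19b-3p is at 101 and 89.6 units in the control samples and at no more than 46.8 units in the others. The control arrays were brighter as a whole.

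mmu-miR-19b-3p, which shares its seed with miR-19a-3p, had lower values in both induced groups than in the control group. Its log2 scaled signal was 4.45 and 5.59 in the WT samples, 4.98 and 5.40 in the MT samples, and 6.06 and 6.26 in the control samples. The control samples did not overlap with the WT or the MT samples, while the WT samples lay on either side of both MT samples. The mean was 5.02 ± 0.81 (SD, n = 2) in the WT group, 5.19 ± 0.30 (n = 2) in the MT group and 6.16 ± 0.14 (n = 2) in the control group. The difference of WT from control was -1.14 on the log2 scale (95% interval -1.998 to -0.287, unadjusted p = 0.0161, adjusted p = 0.139, limma). miR-19b-3p entered the fit across miRNAs only because both control arrays detected it, the group in which it was high, so these p-values do not support a lower signal in the other groups. The difference of MT from control was -0.97 (95% interval -1.83 to -0.12), with unadjusted p = 0.0315 and adjusted p = 0.0993.

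The detection of miR-19b-3p varied between samples of a group. It was detected on 2 of 2 control arrays, on 1 of 2 MT arrays and on 2 of 4 WT arrays, and the WT arrays that detected it were both of replicate 2. On the WT arrays of replicate 1, 0% and 20% of its spots were well above background, and 20% were on the array of MT replicate 1. The limit for detection also differed between arrays. The lowest signal of a detected mouse probe was 38.35 units on the first array of WT replicate 1 and 32.47 on that of MT replicate 1. On the other arrays it was between 14.02 and 22.3 units. The dimmer probe of miR-19b-3p was at the lowest value allowed on all 6 induced arrays (the floor, 4.08 on the log2 scale) and at 4.50 and 4.66 on the control arrays. The size of the WT difference depended on WT replicate 1, on which the probe was not detected, being -1.71 without WT replicate 2 and -0.57 without WT replicate 1. With normexp background correction the difference was -0.11 in WT (unadjusted p = 0.527, limma) and -0.14 in MT (unadjusted p = 0.433, limma). The arrays of WT replicate 2 and of the control lay on the same side of the slide, and the -0.57 is thus also the difference within that side. All WT arrays lay in row 1 of the slide and all MT and control arrays in row 2. Row and group thus cannot be told apart in any comparison with WT. The MT and control arrays lay on opposite sides, so that side and group cannot be told apart in that pair. With slide side added to the model, estimable only through the WT arrays, the MT difference of miR-19b-3p became 0.17.

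mmu-miR-92a-3p, the member known for restraining blood vessel growth, stood higher in both induced groups relative to the scaling percentile. Its log2 scaled signal was 7.55 and 7.55 in the WT samples, 7.62 and 7.60 in the MT samples, and 7.04 and 7.13 in the control samples. Every induced sample was above both control samples. The mean was 7.55 ± 0.0045 (SD, n = 2) in the WT group, 7.61 ± 0.012 (n = 2) in the MT group and 7.08 ± 0.066 (n = 2) in the control group. WT exceeded control by 0.47 (95% interval 0.13 to 0.80), a 1.38-fold difference, with unadjusted p = 0.0136 and adjusted p = 0.139. MT exceeded control by 0.53 (95% interval 0.19 to 0.86), 1.44-fold, with unadjusted p = 0.0077 and adjusted p = 0.0611. The 2 arrays of WT replicate 1 alone had a standard deviation of 0.137, wider than that between the WT samples. Neither difference passed the test, and among the 142 miRNAs they were the 24th highest in WT and the 33rd highest in MT.

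The sign of the miR-92a-3p difference did not hold in every scaling, and only its place above the median of all miRNAs did in the cases given here. Without scaling its difference was -0.026 in WT and -0.13 in MT, while the median of all 142 miRNAs was -0.32 and -0.50. With the percentile taken over all mouse probes, the MT difference was -0.19 and the median of all was -0.51. In each of these cases it lay above the median of all miRNAs. Within the side of the slide that WT replicate 2 shared with the control, it was 0.46 higher in WT, close to the full value, though the slide rows differed. Its dimmer probe gave 0.35 in WT and 0.51 in MT.

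mmu-miR-20a-5p, a close relative of miR-17-5p that acts on E2F and cell cycle genes, differed less. Its log2 scaled signal was 5.45 and 5.75 in the WT samples, 5.64 and 5.68 in the MT samples, and 6.01 and 5.82 in the control samples. All induced samples lay under both control samples, with the second WT sample only just so. The mean was 5.60 ± 0.21 (SD, n = 2) in the WT group, 5.66 ± 0.028 (n = 2) in the MT group and 5.91 ± 0.14 (n = 2) in the control group. The difference from control was -0.32 in WT (95% interval -0.72 to 0.08, adjusted p = 0.232) and -0.25 in MT (95% interval -0.66 to 0.15, adjusted p = 0.288). Both intervals included 0. With normexp background correction the sign turned, to 0.21 in WT and 0.15 in MT, and with the scanner's total gene signal the WT difference was 0.16. On the first array of WT replicate 1 the miR-20a-5p probe was the dimmest detected, with 55.6% of its spots well above background.

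**Figure D2:**
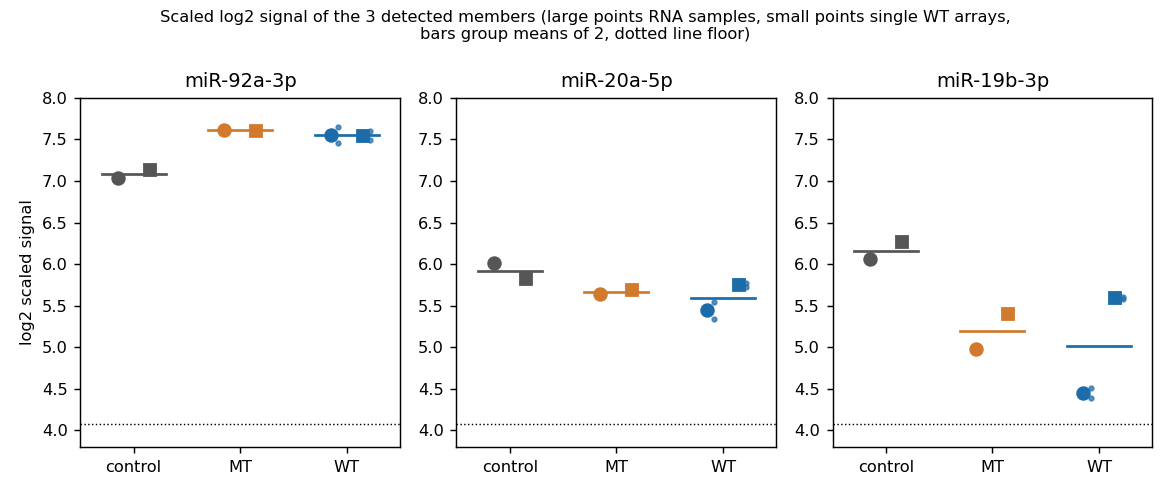
Log2 scaled signal of miR-92a-3p, miR-20a-5p and miR-19b-3p in the control, MT and WT groups, with large points for RNA samples (circle replicate 1, square replicate 2), small points for single WT arrays, bars for means of 2 samples and a dotted line at the floor of 4.08. After this scaling miR-92a-3p is higher in every induced sample than in the control samples (not so without scaling, where its differences are -0.026 and -0.13), and miR-19b-3p is lower, with WT replicate 1 at 4.45.

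Counted together, 0 of the 3 tested members passed an adjusted p of 0.05 in either comparison with the control, and 0% of all 142 miRNAs did (0 miRNAs). At an unadjusted p under 0.05, 2 of the 3 members were called against control in WT, where 28.2% of all miRNAs were (40 miRNAs), and 2 of 3 in MT, where 39.4% were (56 miRNAs). All 3 members had samples that did not overlap with the control in WT and in MT, as did 64.8% and 67.6% of all miRNAs. By direction, miR-92a-3p was the member called higher at an unadjusted p under 0.05, beside 17.6% of all miRNAs in WT and 26.8% in MT, and miR-19b-3p was the member under that p with a lower value, beside 10.6% in WT and 12.7% in MT. Since miR-19b-3p was tested through the control group alone, its place in these counts is no evidence of a lower signal. miR-92a-3p lay above the control without overlap, beside 39.4% of all miRNAs in WT and 40.8% in MT, and miR-20a-5p and miR-19b-3p lay under it, beside 25.4% in WT and 26.8% in MT. The median difference of the 3 tested members was -0.32 in WT and -0.25 in MT, beside medians of 0.11 and 0.13 over all miRNAs tested. A difference above 2-fold was present in 1 of 3 members in WT, miR-19b-3p, which was detected on 2 of 4 WT arrays, where 2.11% of all miRNAs were (3 miRNAs), and 0 of 3 in MT, where 0.704% were. Both comparisons share the same 2 control samples, so that a deviation of those samples enters both. With 2 samples against 2, an exact permutation test of a single member cannot give a two-sided p under 0.333.

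The comparison of WT with MT asks whether the mutation alters the response. The difference of WT from MT was -0.067 for miR-20a-5p (95% interval -0.47 to 0.34), -0.17 for miR-19b-3p (95% interval -1.03 to 0.68) and -0.060 for miR-92a-3p (95% interval -0.40 to 0.28). The adjusted p was 0.99 for each. Called at an unadjusted p under 0.05 were 0 of 3 members, beside 0% of all miRNAs, and WT and MT samples overlapped for miR-20a-5p and miR-19b-3p. For miR-92a-3p the second array of WT replicate 1 alone, at 7.65, lay above both MT arrays (7.62 and 7.60). With the WT arrays averaged, both WT samples were under both MT samples. Such a separation was present in 26.1% of all miRNAs, with WT lower in 17.6% and WT higher in 8.45%, the latter including 0 of the 3 members. The interval of miR-19b-3p does not exclude a difference of up to 1.03 in size.

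**Figure D3:**
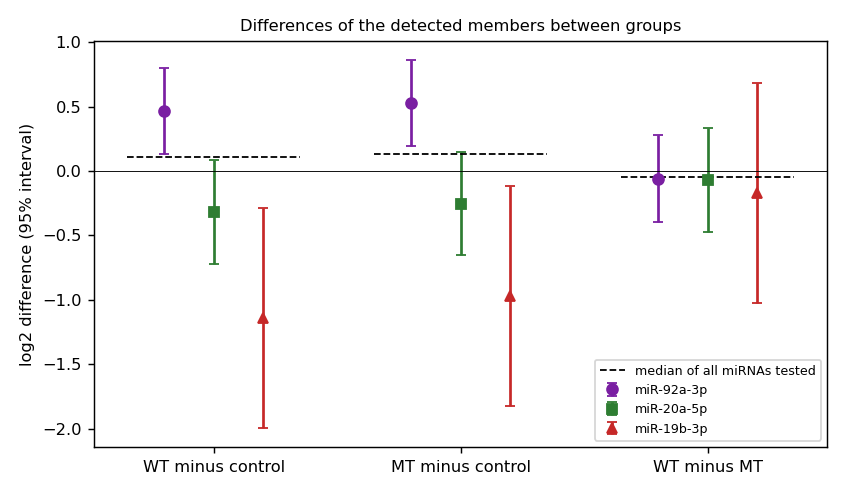
Log2 differences of miR-92a-3p, miR-20a-5p and miR-19b-3p in the 3 comparisons, with 95% intervals from the limma fit and dashed lines at the median of all 142 miRNAs tested. Against the control the members lie on both sides of the median, at 0.47, -0.32 and -1.14 for WT and 0.53, -0.25 and -0.97 for MT, and for WT against MT all 3 intervals include 0. Under other settings the sign turned for miR-92a-3p without scaling (WT and MT) and with the percentile over all mouse probes (MT), for miR-20a-5p with normexp (WT and MT), with the total gene signal (WT) and with slide side in the model (MT), and for miR-19b-3p with slide side in the model (MT).

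Ratios between members of the cluster on the same array do not depend on the factor by which an array is scaled, as long as both values are above the floor. The log2 ratio of miR-92a-3p over miR-19b-3p was 3.10 and 1.96 in the WT samples, 2.64 and 2.20 in the MT samples, and 0.97 and 0.87 in the control samples. Every induced sample had a higher ratio than both control samples. The ratios of 3.10 and 2.64 are set against a miR-19b-3p probe that was not detected in WT replicate 1 and MT replicate 1, so their size is uncertain. The mean ratio exceeded that of the control by 1.609 in WT and by 1.498 in MT with these samples included. This describes unequal differences of the 2 miRNAs from the control, without a test, and not which of them differed. In the samples that detected both miRNAs, the ratio was 1.96 in WT replicate 2 and 2.20 in MT replicate 2. The ratio of miR-92a-3p over miR-20a-5p was 2.11 and 1.80 in WT, 1.98 and 1.92 in MT, and 1.02 and 1.31 in control, with differences of 0.79 and 0.78 from the control. The ratio of miR-20a-5p over miR-19b-3p was 1.00 and 0.16 in WT, 0.66 and 0.28 in MT, and -0.05 and -0.44 in control, with differences of 0.82 and 0.72, and the same limit for replicate 1 of WT and of MT. In none of the 3 ratios did an induced sample reach the range of the control samples. These ratios come from only 3 miRNAs and are not independent. Those with miR-19b-3p rest on a miRNA that entered through the control group alone, where it was high. The share of other miRNA pairs with such a separation was not computed. Of single miRNAs, 64.8% in WT and 67.6% in MT did not overlap with the control. Within the side of the slide shared by WT replicate 2 and the control, the ratio of miR-92a-3p over miR-19b-3p was 1.96 against 0.97 and 0.87. The arrays of WT replicate 2 and of the control still lay in different rows of the slide.

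**Figure D4:**
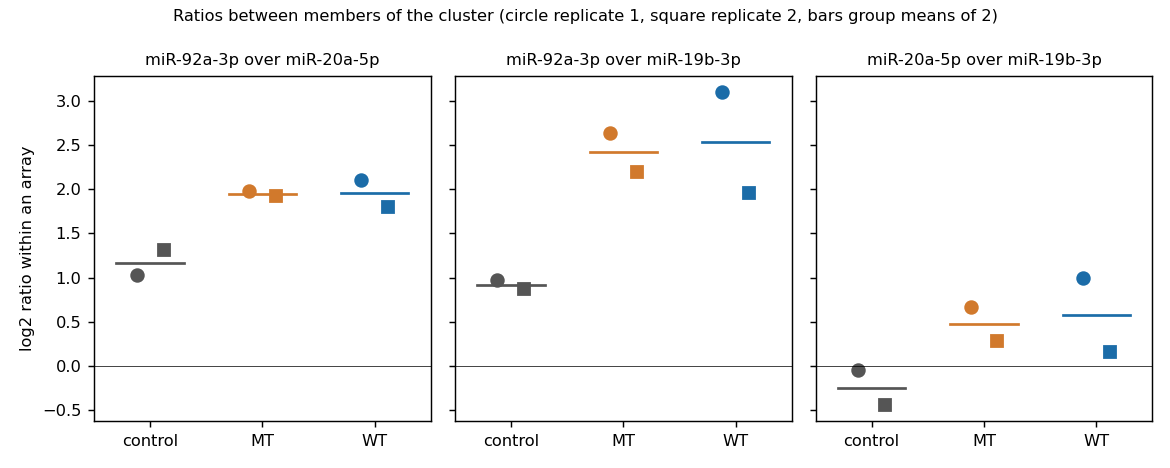
Log2 ratios between pairs of the detected members within an array for the control, MT and WT groups, with a point per RNA sample (circle replicate 1, square replicate 2) and bars at means of 2 samples. The ratio of miR-92a-3p over miR-19b-3p is under 1 in both control samples and between 1.96 and 3.10 in the induced samples.

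The gap between miR-92a-3p and miR-19b-3p moved with the background correction and with the samples used. The smallest gap between their differences from control among the alternatives was 0.59 for WT, with normexp background correction, and 0.35 for MT, with slide side added to the model. Normexp correction also reduced the differences of the other ratios from the control, to between 0.27 and 0.33. The ratio of miR-92a-3p over miR-19b-3p was 0.11 higher in WT than in MT on the log2 scale, less than the spread between the WT samples (SD 0.81).

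The members also differed in base composition, and the scaled difference from control moved with base composition over the tested miRNAs with a sequence. A RefSeq sequence was matched for 118 of the 142 miRNAs tested (83.1%). Across these miRNAs, which share the same arrays and are not independent replicates, the correlation of the percentage of G and C with the difference from control was r = 0.48 and rho = 0.508 in WT and r = 0.518 and rho = 0.531 in MT. Among the 86 of them detected on all 8 arrays, it was r = 0.49 and rho = 0.526 in WT. In MT it was r = 0.499 and rho = 0.524 for the same 86 miRNAs. miR-19b-3p and miR-20a-5p belonged to the 41 miRNAs with 31.8% to 40.9% of G and C, of which 29 were lower in WT than in control and 28 were lower in MT. The median difference of those 41 miRNAs was -0.24 in WT and -0.23 in MT. Some of the 41, among them miR-19b-3p, were tested through the control group alone, so the filter itself favoured lower values there. miR-92a-3p belonged to the 36 miRNAs with 52.4% to 72.7%, of which 32 were higher in WT and 33 in MT, with median differences of 0.31 and 0.50. After this scaling, the directions of all 3 members were those of most miRNAs of like composition. Without scaling, only 12% of all 142 miRNAs lay above the control in WT and 13.4% in MT. The counts by composition were not computed without scaling. The part of base composition in the differences of the members was not tested.

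**Figure D5:**
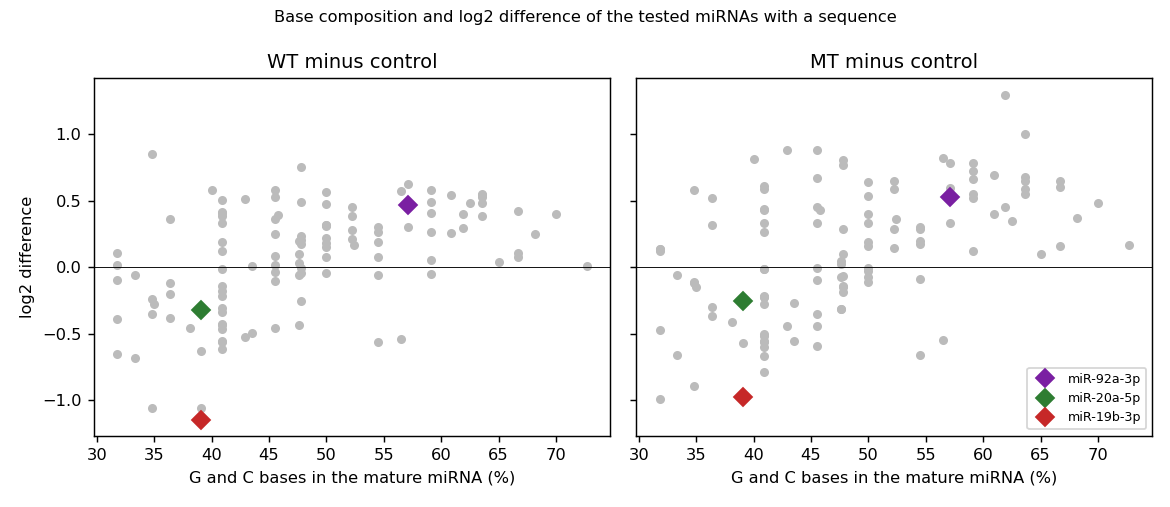
Log2 difference from control, for WT and MT, against the percentage of G and C bases of the mature sequence, with a grey point for each of the 118 tested miRNAs that have a RefSeq sequence and diamonds for the cluster members. miR-20a-5p and miR-19b-3p, at 39.1%, lie under 0, and miR-92a-3p, at 57.1%, lies above 0 after this scaling (under 0 without scaling, at -0.026 and -0.13).

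The other products and paralogs of the cluster were read beside the members. None of the 5 passenger arms on the array (4 of this cluster and miR-92a-2-5p of the X-linked copy) was detected on any array. Of the related cluster on chromosome X, named for miR-106a and miR-363, 4 miRNAs were on the array and 1 was tested, miR-20b-5p, which differs from miR-20a-5p at 2 bases. miR-106a-5p was not found by name among the mouse miRNAs on the array, so it was not analysed here. The log2 scaled signal of miR-20b-5p was 4.33 and 4.66 in WT, 4.48 and 4.66 in MT, and 4.80 and 4.71 in control. It was detected on 2 of 4 WT arrays, 1 of 2 MT arrays and 2 of 2 control arrays, so it too was tested through the control group alone. Its difference from control was -0.26 in WT (adjusted p = 0.337) and -0.19 in MT (adjusted p = 0.455). Whether the probes of these 2 near-identical miRNAs tell them apart was not tested.

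The paralogous miR-106b to miR-25 cluster lies in an intron of Mcm7, a gene of DNA replication, and 3 of its 5 arms on the array were tested. Their sequences are given for comparison with the members of the same seed.
miR-106b-5p: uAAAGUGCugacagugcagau
miR-93-5p: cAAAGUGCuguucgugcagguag
miR-25-3p: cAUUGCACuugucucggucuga
miR-106b-5p had a log2 scaled signal of 5.39 and 5.53 in WT, 5.58 and 5.50 in MT, and 5.89 and 6.08 in control, and its difference from control was -0.52 in WT (adjusted p = 0.139) and -0.44 in MT (adjusted p = 0.0893). miR-93-5p, with the same seed, was at 7.12 and 7.10 in WT, 7.42 and 7.18 in MT, and 6.57 and 6.74 in control, with differences of 0.45 (adjusted p = 0.139) and 0.65 (adjusted p = 0.0611). miR-25-3p, which has the seed of miR-92a-3p, was at 7.13 and 6.99 in WT, 7.12 and 7.03 in MT, and 6.84 and 6.65 in control, with differences of 0.32 (adjusted p = 0.21) and 0.33 (adjusted p = 0.151). Arms of this single transcript thus also stood on both sides of 0 after scaling, none of them past the test. G and C made up 42.9% of miR-106b-5p, 52.2% of miR-93-5p and 50% of miR-25-3p. By seed, the 4 tested miRNAs with AAAGUGC included 3 with lower values than the control in both induced groups and 1, miR-93-5p, with higher values, while both tested miRNAs with AUUGCAC were higher. Of all 142 miRNAs tested, 61.3% were higher than the control in WT and 57.7% in MT. Among the 3 lower ones, miR-20b-5p was tested through the control group alone, so its place in this count is no evidence of a lower signal.

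The miRNAs whose pattern over the 6 RNA samples was most like the mean of the 3 detected members were miR-20b-5p (Pearson r = 0.965), miR-21-5p (r = 0.957), miR-301a-3p (r = 0.953), miR-29c-3p (r = 0.952) and miR-199a-3p (r = 0.923). These correlations describe 6 samples of 3 groups and have no test. The mean follows miR-19b-3p and miR-20a-5p (r = 0.902 with each other), while miR-92a-3p ran against both (r = -0.784 and -0.797), so the likeness does not extend to miR-92a-3p. Of the 5, miR-301a-3p came closest to miR-19b-3p in size, with differences from control of -1.05 in WT and -0.98 in MT, and it was likewise detected on all arrays of the control group alone. miR-21-5p, abundant in mesenchymal cells, had differences of -0.89 and -0.71 (adjusted p = 0.139 and 0.106). All 5 were lower in each induced sample than in both control samples. They were chosen for likeness to a mean that was itself lower in every induced sample, so this separation follows largely from the choice. Of all 142 miRNAs tested, 25.4% lay under the control without overlap in WT and 26.8% in MT. In total RNA of a culture, fewer cells expressing a miRNA and less of it per cell cannot be told apart.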

How the data were processed

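miRNAs of C3H10T1/2 cells were measured on 8 one-colour Agilent arrays of 1 slide (2 RNA samples per group; each WT sample on 2 arrays). Per array, the deposited scanner file gives each spot's intensity after background subtraction and detrending, and a further deposited table covers the series. That table held the background-subtracted intensity to within 0.005 units on at least 99.27% of spots of an array (largest difference 0.5), without normalization between arrays, so it gave no separate alternative. The Feature Extraction version was 10.7.1.1 in the file headers and 9.1 in the submitters' processing notes, and the methods name another one. The methods also name a gene expression array, whereas the files are of a miRNA array. How the authors normalized between arrays is not stated in the sources used here.

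Probe values were means over spots, without control spots and outliers. They were divided by the array's 75th percentile over 174 probes (those detected on every array) and multiplied by the geometric mean of these percentiles. A floor was set at 4.08 (log2), the median over arrays of the lowest detected signal, and log2 values were computed from the deposited intensities. The probe with the highest mean stood for a miRNA, and WT arrays of a sample were averaged. A miRNA was tested if every array of some group detected it (142 miRNAs). The 3 groups shared 1 fit in limma 3.58.1 (R 4.3.3, lmFit, eBayes, 3 residual degrees of freedom, Benjamini-Hochberg over all 142, threshold 0.05), without a replicate block. The fit was tested on simulated data. Figures were drawn with matplotlib version 3.10.9.

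The members and lists were chosen with earlier results of these data known. Members were to be compared with the mean of all 6, but 3 of them are at the floor on all arrays, so ratios of pairs of the detected members are given instead. All members were named, together with the tested miRNAs of the related clusters and the 5 miRNAs closest in pattern. Sequences and positions are from RefSeq (GRCm38.p6), while the header of the arrays names mm9, and no coordinate of the files was used. Alternatives covered scaling, signal column, background correction, floor, filter, probe summary, outlier spots, technical arrays, block, samples in the fit, variance trend, side of the slide and each replicate left out. The number of arrays limits the precision.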

Additional observations from a re-analysis of the deposited data

How the results depend on the processing

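The number of members past the adjusted threshold was 0 in all 3 comparisons, and with normexp background correction it was 1 in each of the comparisons with control (miR-92a-3p, adjusted p = 0.0453 and 0.0313, over alternatives 0.0453 to 0.981 and 0.0259 to 0.945), while the calls among all miRNAs rose from 0 to 22 and 40. For MT against control it was 1 with miRNAs detected on all 8 arrays (29 of 103 called), and it ranged from 0 to 1 when single replicates were left out (1 without MT replicate 2, miR-19b-3p, with 18 miRNAs called). Without scaling, an alternative chosen after seeing the data, it was 2 for WT and 2 for MT (miR-19b-3p and miR-20a-5p, both lower, among 28 and 46 miRNAs called). A fit to all 8 arrays with RNA sample as random effect called 11 miRNAs for MT, the total gene signal 3 of 166 for WT and 3 for MT, the floor multiplied by 0.5 1 for WT and 1 for MT, the fit without a filter 1 for MT, and the fit without MT replicate 2 1 for WT against MT. The fit without a filter had zero variance for most miRNAs, so that its p-values are not usable.

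The median of the members moved, for WT against control, to -0.68 with the percentile over all mouse probes, 0.16 with the total gene signal, 0.21 with normexp, 0.0734 with miRNAs detected on all 8 arrays (which leaves 2 members), -0.17 with slide side in the model and -0.81 without scaling, and ranged from -0.47 to -0.17 when replicates were left out (without WT replicate 2 and 1). For MT against control it moved to -0.97 with all mouse probes, 0.15 with normexp, 0.14 with miRNAs detected on all 8 arrays, -0.040 with outlier spots kept, 0.17 with the side term and -0.91 without scaling. For WT against MT it moved to 0.29 with all mouse probes, -0.22 with the side term and 0.099 without scaling, and ranged from -0.22 to 0.084 when replicates were left out. Among all tested miRNAs the median for WT and MT against control went from 0.107 and 0.131 to -0.187 and -0.512 with all mouse probes, to -0.321 and -0.499 without scaling, and to 0.233 and 0.169 with normexp, and the share above 0 from 61.3% and 57.7% to 29.6% and 10.6%, 12% and 13.4%, and 80.3% and 73.2%. For WT against MT the median went from -0.0434 to 0.296 with all mouse probes (92.3% above 0, from 37.3%) and to 0.112 without scaling (76.8%).

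Signs of single members turned as follows. For WT against control miR-20a-5p was 0.162 with the total gene signal and 0.207 with normexp, and miR-92a-3p was -0.026 without scaling. For MT against control miR-92a-3p was -0.189 with all mouse probes and -0.132 without scaling, miR-20a-5p was 0.151 with normexp and 0.0493 with the side term, and miR-19b-3p was 0.171 with the side term. For WT against MT, with all mouse probes, miR-20a-5p was 0.29, miR-19b-3p 0.282 and miR-92a-3p 0.297. In the same comparison miR-20a-5p was 0.00847 with quantile normalization, 0.512 with the total gene signal, 0.0556 with normexp, 0.099 without scaling and 0.0838 without WT replicate 1. miR-19b-3p was 0.0264 with normexp, and its difference ranged from -0.743 (without WT replicate 2) to 0.399 (without WT replicate 1) over the replicates left out, and was 0.04 without MT replicate 2. miR-92a-3p was 0.00583 with the total gene signal, 0.0141 with the second technical arrays and 0.106 without scaling. Against control, normexp lowered the difference of the ratio of miR-92a-3p over miR-20a-5p to 0.273 in WT and 0.329 in MT, of miR-92a-3p over miR-19b-3p to 0.591 and 0.618, and of miR-20a-5p over miR-19b-3p to 0.318 and 0.288. With the total gene signal, miR-92a-3p over miR-20a-5p differed by 0.227 for WT against control and -0.506 for WT against MT, and miR-20a-5p over miR-19b-3p by 1.66 and 0.68. Why these values moved was not tested.

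The replicate numbers gave no consistent sign of paired samples over the 3 groups. Same-numbered deviations correlated at 0.0223 between WT and MT, at 0.391 between WT and control and at -0.464 between MT and control. With the replicate block, 0 members and 0 miRNAs were called in each comparison, and 41, 58 and 1 miRNAs had an unadjusted p under 0.05. With the crossed pairing of MT and control, chosen after seeing the data, 58 of 142 miRNAs and 2 members were called.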
